A study of Rattus norvegicus with 120 samples.

Results

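The kidneys of rats given a low dose of tacrolimus were compared directly with those of rats given a low dose of rapamycin after 7 daily doses. The comparison rests on 8 of the 120 arrays of the series, 1 array per rat, chosen by their labels: 4 rats labelled FK-506 0.6 mg/kg with 7 doses and 4 labelled Rapamycin 1 mg/kg with 7 doses. All were male Sprague-Dawley rats aged 5 to 7 weeks before treatment, dosed by intraperitoneal injection once a day and killed 24 hours after the last dose, and RNA came from the part of each kidney that was not kept for histology. By its title, the series was set up to find expression markers of kidney toxicity caused by calcineurin inhibitors. The other groups received olive oil (vehicle), cyclosporine, or the same drugs at FK506 6 mg/kg and rapamycin 10 mg/kg, for 1, 7, 14 or 28 days. The doses of the 2 drugs differ in mg/kg and were not matched for effect, so a difference between them is a difference between these dosed groups.

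Tacrolimus (FK506) and rapamycin are macrolides that enter the cell and bind the same small protein, FKBP12. The complex of FK506 with FKBP12 inhibits calcineurin, the calcium-dependent phosphatase that activates the NFAT transcription factors. The complex of rapamycin with FKBP12 inhibits mTOR complex 1, a kinase that promotes ribosome production, growth and cell division, and that restrains autophagy and TFEB, a transcription factor of lysosomal genes. In the kidney, calcineurin inhibitors are known to constrict the afferent arteriole and to act on salt, calcium and magnesium transport in the distal tubule.

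Levels are given as log2 of the intensity plus 16 after quantile normalization, and a difference is the mean of the 4 FK506 rats minus the mean of the 4 rapamycin rats, with its standard error (SE). The offset of 16 makes the folds of dim genes too small. Nothing but the rat number separates the rats of a group in the labels, and they are called rats 1 to 4 in accession order. The 8 arrays were alike in quality. The Gapdh ratio, on the log2 scale the signal near the 3′ end of Gapdh over that near its 5′ end, which rises with RNA degradation and short labelling, was 0.387 to 0.457 with FK506 and 0.367 to 0.477 with rapamycin (exact two-sided permutation test, p = 0.914, adjusted over 3 measures 0.914). The hybridization controls (p = 0.114, adjusted 0.342) and the median intensity (p = 0.6, adjusted 0.9) did not separate the groups either in this exact test, whose smallest possible p is 0.0286. Correlations between arrays were 0.975 to 0.984 within a group and 0.971 to 0.979 between the groups. The kidney markers Umod, Slc12a1, Lrp2, Slc34a1 and Aqp2 all lay at or above the 97.3 percentile of all genes, and Alb, Cyp11b1, Prss1 and Ckm, which mark liver, adrenal, pancreas and muscle, at or below the 16.6 percentile. The fat marker Adipoq lay higher, at the 39.1 percentile, and the red cell marker Hbb at the 96.3 percentile.

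Of 10663 genes tested, 352 differed at an adjusted p under 0.05 (called genes, 3.3%; limma, Benjamini-Hochberg over all genes), and 1595 at an unadjusted p under 0.05. In 250 of them the level was higher with FK506 (2.34% of the genes tested) and in 102 it was lower (0.957%). The counts of gene lists given below are to be read beside these shares. The differences were modest: the median size among called genes was 0.44 on the log2 scale, the range 0.16 to 2.41, and 24 genes passed 2-fold. The levels of the 2 groups did not overlap in 314 of the 352 called genes, against 1174 of all genes tested (11%). By size, the genes that were higher with FK506 were led by Pxmp4, a peroxisomal membrane protein, the kallikrein gene Klk1c4, the lipid gene Dgkg, Stra6, and Dpp7, a lysosomal enzyme. A rise or a fall means a level higher or lower with FK506 than with rapamycin, and says nothing of the difference from vehicle. The lipid genes Creb3l3 and Apoe were among the 15 largest rises too. Hexa, another lysosomal enzyme, was not among them, with a difference of 0.73, but had the same adjusted p as Dpp7 (1.31e-11 in limma). The genes that were lower with FK506 were led by the calcium-binding proteins Calb1 and S100g and by Ptgs2 (cyclooxygenase-2). When single rats were left out, the number of called genes was 230 without FK506 rat 1, 210 without FK506 rat 4, 218 without rapamycin rat 1 and 217 without rapamycin rat 4, and it lay between 271 and 307 without any other. With the 8 arrays fitted alone, which gives a far less certain estimate of the spread, 98 genes were called.

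**Figure D1:**
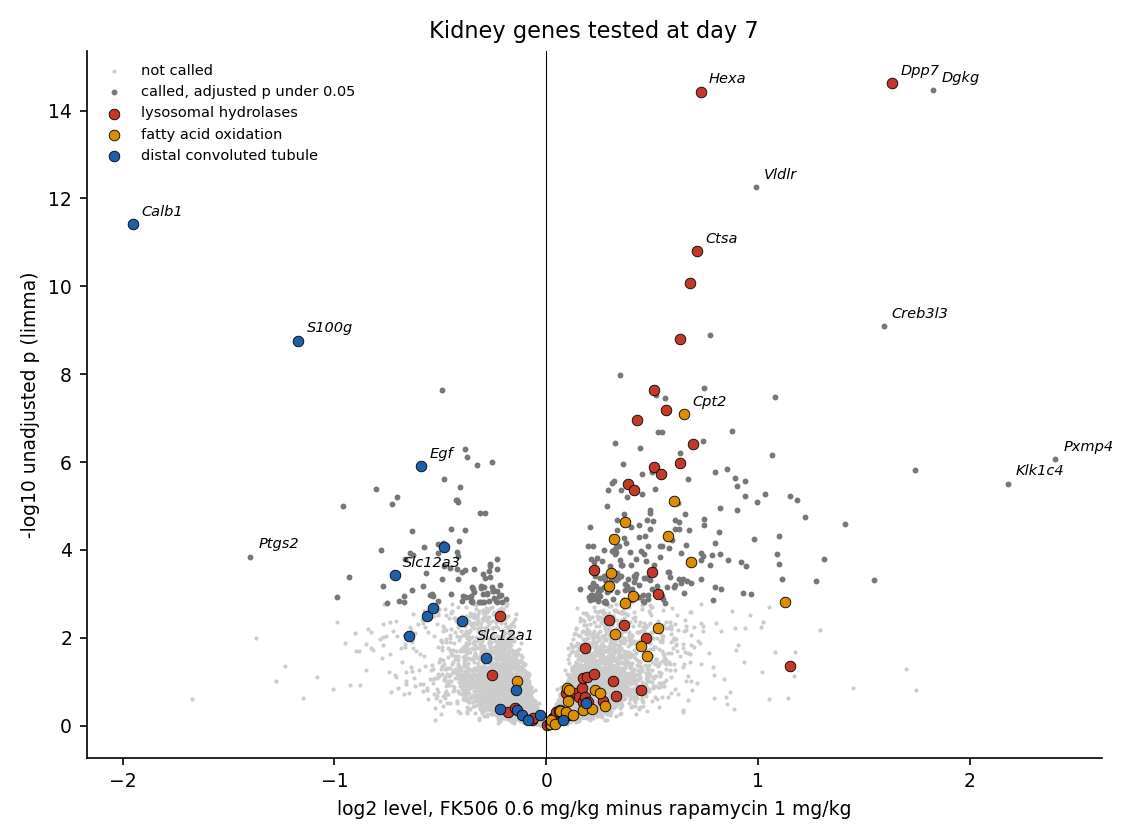
Each point is 1 of 10663 genes, with the log2 difference between FK506 0.6 mg/kg and rapamycin 1 mg/kg at day 7 on the x axis and -log10 of the unadjusted limma p on the y axis. Coloured points are members of 3 gene lists. Lysosomal hydrolases and fatty acid oxidation genes that were called lie to the right of 0, with Dpp7 at 1.64 and Hexa at 0.73, and called genes of the distal convoluted tubule lie to the left, with Calb1 at -1.95.

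Some genes of lysosomal enzymes were higher with FK506. A list of lysosomal hydrolases was drawn up after these leading genes had been seen, so its count is a description. It also holds some lysosomal proteins that are not hydrolases, such as Ifi30, and its members are called hydrolases for short. Of 50 members tested, 17 were higher with FK506, 0 were lower, and 44 had a difference above 0. The median over the list was 0.23, against 0.01 over all genes tested. The mean level over the list was 9.86 to 9.96 in the 4 FK506 rats and 9.58 to 9.63 in the 4 rapamycin rats. Without any 1 rat, 15 to 17 members were called, and 9 were called with the 8 arrays alone. A list of lysosome and autophagy genes that overlaps it held 32 tested genes, with a median of 0.12. Its 4 called genes, Hexa, Ctsa, Glb1 and Ctsb, are all among the 17 hydrolases, and the autophagy gene Map1lc3a, at -0.36, did not pass the test (adjusted p = 0.0851).

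Dpp7, a dipeptidyl peptidase of the lysosome, stood at 11.78, 11.70, 11.55 and 11.37 in the FK506 rats and at 10.08, 9.75, 9.88 and 10.15 in the rapamycin rats. The groups were separated by more than 1 log2 unit, and the difference was 1.64 (SE 0.17, a 3.11-fold difference, adjusted p = 1.31e-11). Hexa, a subunit of beta-hexosaminidase, stood at 11.68, 11.57, 11.46 and 11.60 with FK506 and at 10.80, 10.80, 10.90 and 10.89 with rapamycin. Its spread within these groups was small (SD 0.09 and 0.06, n = 4 each), although the SE is estimated from all groups of the series. The difference of 0.73 (SE 0.08, 1.66-fold) had the same adjusted p in limma as that of Dpp7. Ctsa, cathepsin A, was at 13.40, 13.35, 13.34 and 13.26 with FK506 and at 12.65, 12.65, 12.56 and 12.65 with rapamycin, a difference of 0.71 (SE 0.09, adjusted p = 2.79e-08). Glb1, beta-galactosidase, was at 11.70, 11.49, 11.36 and 11.55 against 10.86, 10.87, 10.86 and 10.99, a difference of 0.63 (SE 0.09, adjusted p = 1.68e-06). In each of these genes every FK506 rat lay above every rapamycin rat. The other called hydrolases were Lgmn (0.69), Fuca1 (0.68), Fuca2 (0.63), Gaa (0.57), Siae (0.54), Scpep1 (0.53), Man2b1 (0.51), Ifi30 (0.51), Acp5 (0.50), Ctsb (0.43), Galc (0.41), Aga (0.39) and Tpp1 (0.23). They break down different substrates: fucosylated glycans for Fuca1 and Fuca2, glycogen for Gaa, mannose-rich glycans for Man2b1, galactosylceramide for Galc, and proteins for Lgmn, Ctsb and Tpp1. Ifi30 is a thiol reductase of the lysosome. Further probe sets gave smaller differences that were not called for Lgmn (0.37), Gaa (0.43) and Siae (0.32), and for Man2b1 a further probe set gave -0.40 (adjusted p = 0.672). Scpep1 was not called without any 1 of 5 rats (0.35 to 0.55), Acp5 without any 1 of 4 (0.43 to 0.47) and Tpp1 without any 1 of 3 (0.21 to 0.22).

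Compared with vehicle rats of day 7, these 4 genes fell with rapamycin and did not pass the test with FK506. Hexa differed from vehicle by 0.06 with FK506 (adjusted p = 0.761) and by -0.67 with rapamycin (adjusted p = 2.26e-09). For Dpp7 the values were 0.28 (adjusted p = 0.451) and -1.36 (adjusted p = 3.36e-08), for Ctsa 0.18 (adjusted p = 0.346) and -0.53 (adjusted p = 7.38e-05), and for Glb1 0.16 (adjusted p = 0.44) and -0.47 (adjusted p = 6.9e-04). Over the 50 hydrolases the median difference from vehicle was 0.11 with FK506 and -0.19 with rapamycin. The comparisons with vehicle share arrays with each other and with the direct comparison, and are given side by side for that reason. They called 206 genes for FK506 (1.93%) and 450 for rapamycin (4.22%). The vehicle arrays had a higher Gapdh ratio (0.598 to 0.888) than both drug groups, and with this ratio as a covariate the counts were 52 and 224, while the direct comparison gave 359. The FK506 count was 54 without FK506 rat 1, 119 without FK506 rat 2 and 95 without vehicle rat 4, and the rapamycin count was 224 without rapamycin rat 1, 287 without rapamycin rat 2 and 282 without vehicle rat 1. With the groups of each comparison fitted alone, limma called 2 genes for FK506 and 42 for rapamycin. These limits hold for every difference from vehicle given below, and none of those values is adjusted for the Gapdh ratio.

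**Figure D2:**
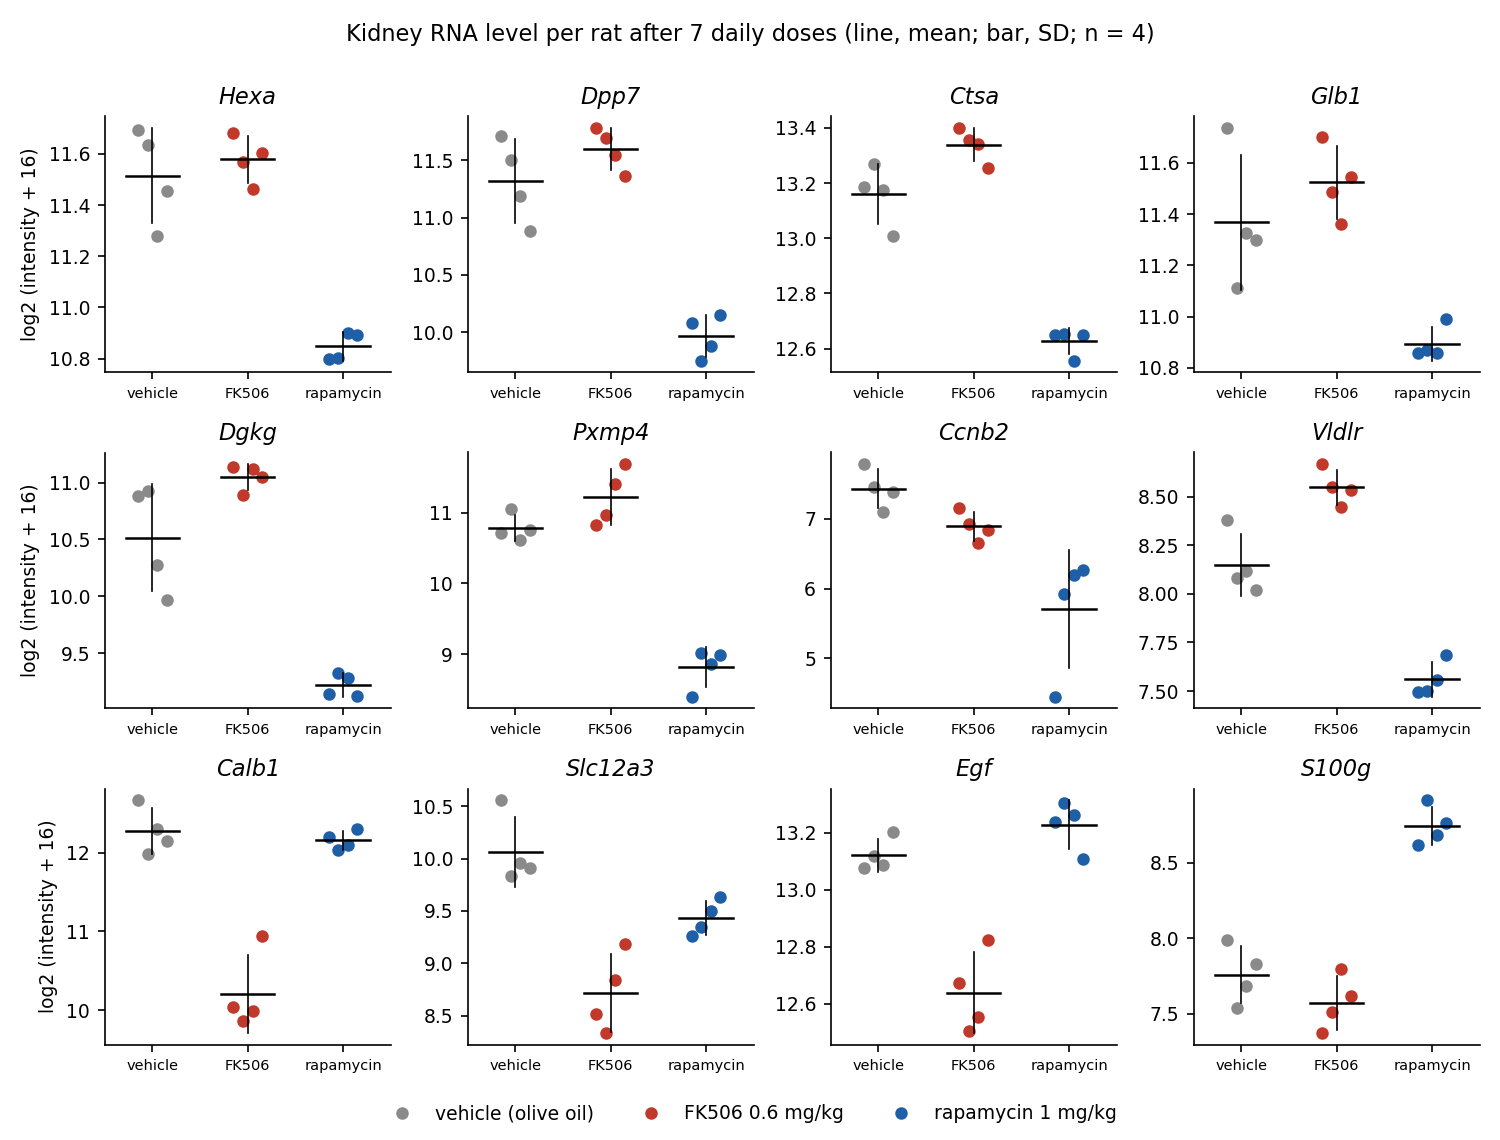
Levels of 12 genes in the 4 rats of each group at day 7 (y axis, log2 of intensity plus 16, a different range for each gene), with the mean (line) and SD (bar). In the top row the FK506 and vehicle rats lie together above the rapamycin rats, with Hexa between 11.46 and 11.68 for FK506 and between 10.80 and 10.90 for rapamycin. In Calb1 the FK506 rats (9.86 to 10.94) lie below the rapamycin rats (12.04 to 12.31).

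The promoters of lysosomal genes are known for the E-box sequence CACGTG, often within TCACGTGA, which TFEB can bind. Promoters from 250 bases before to 50 after the gene's start (RefSeq, build GRCr8, first entry of each symbol) were available for 13 of the 17 called hydrolases and for 25 of the 33 others. CACGTG, which reads the same on both strands, was present in 4 of the 13 and in 3 of the 25, against 6.65% of 27457 promoters and 9.72% of the 8909 tested genes that had one. TCACGTGA, which contains it and also reads the same on both strands, was present in 2 of the 13 and 1 of the 25, against 0.867% and 1.76%. Among the 310 called genes with a promoter, 11.3% held CACGTG and 2.9% held TCACGTGA. The split of the list into called and other members comes from these same data, so the shares are a description. A match is a description of the letters and no evidence of binding. The 4 promoters that hold the motif are printed to show its place, followed by that of Dpp7, which had the largest difference and no match in this window. Ctsa, Lgmn, Fuca1, Fuca2, Man2b1, Acp5, Aga and Tpp1 had no match either. No promoter was available for Hexa, Siae, Scpep1 and Ctsb. Whether TFEB had a part in the differences was not tested. Capitals mark CACGTG, or TCACGTGA where it is present, and each sequence runs 5′ to 3′ on the gene's strand. CACGTG begins 100 bases before the start in Glb1 (chr8:122963468-122963767, plus strand), 67 in Gaa (chr10:105028105-105028404, plus strand), and in both Galc (chr6:123245510-123245809, minus strand) and Ifi30 (chr16:18709320-18709619, plus strand) its inner CACGTG begins 20 bases before the start. The window of Dpp7 is chr3:28567443-28567742, minus strand.
Glb1: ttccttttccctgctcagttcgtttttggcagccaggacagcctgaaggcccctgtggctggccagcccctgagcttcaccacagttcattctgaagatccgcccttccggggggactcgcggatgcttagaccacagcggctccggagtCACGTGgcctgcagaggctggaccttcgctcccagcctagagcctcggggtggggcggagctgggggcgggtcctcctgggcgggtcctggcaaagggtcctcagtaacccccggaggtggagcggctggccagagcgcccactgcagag
Gaa: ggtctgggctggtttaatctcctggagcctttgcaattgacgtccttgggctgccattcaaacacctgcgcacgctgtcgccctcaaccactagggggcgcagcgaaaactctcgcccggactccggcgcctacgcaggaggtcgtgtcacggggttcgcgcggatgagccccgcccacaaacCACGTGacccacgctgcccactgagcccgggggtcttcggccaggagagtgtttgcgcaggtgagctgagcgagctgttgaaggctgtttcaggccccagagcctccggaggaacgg
Galc: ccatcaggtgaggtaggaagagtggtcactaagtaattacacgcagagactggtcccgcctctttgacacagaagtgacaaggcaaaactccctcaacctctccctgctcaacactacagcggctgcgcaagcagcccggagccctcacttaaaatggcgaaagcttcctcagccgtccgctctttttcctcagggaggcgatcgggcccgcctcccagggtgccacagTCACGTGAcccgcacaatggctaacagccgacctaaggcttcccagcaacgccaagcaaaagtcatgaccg
Ifi30: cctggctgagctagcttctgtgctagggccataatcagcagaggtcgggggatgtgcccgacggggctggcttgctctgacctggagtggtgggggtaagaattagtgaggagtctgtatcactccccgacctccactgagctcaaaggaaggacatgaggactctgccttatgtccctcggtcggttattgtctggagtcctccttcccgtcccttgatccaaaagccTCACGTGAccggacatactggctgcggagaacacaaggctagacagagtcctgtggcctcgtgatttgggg
Dpp7: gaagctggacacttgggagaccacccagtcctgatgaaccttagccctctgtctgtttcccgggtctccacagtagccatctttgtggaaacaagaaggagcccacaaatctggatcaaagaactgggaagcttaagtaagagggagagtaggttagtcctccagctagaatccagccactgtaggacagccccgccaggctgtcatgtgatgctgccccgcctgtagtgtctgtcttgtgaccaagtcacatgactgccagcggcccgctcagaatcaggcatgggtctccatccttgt

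The proton pump that acidifies the lysosome, the vacuolar ATPase, was also listed after the leading genes had been seen. Of 21 subunit genes tested, 4 were higher with FK506 and 0 lower, with a median of 0.13, and 0 were called with the 8 arrays alone (limma). Atp6v1a, its catalytic subunit, stood at 11.91, 11.78, 11.84 and 11.93 with FK506 and at 11.57, 11.49, 11.53 and 11.57 with rapamycin, a difference of 0.33 (SE 0.06, adjusted p = 1.51e-04). The groups did not overlap, although a further probe set of Atp6v1a gave 0.02. Atp6v1e1 (0.29), Atp6v1d (0.24) and Atp6v1c2 (0.52) were called as well, but Atp6v1d lost its call without any 1 of 7 rats (0.20 to 0.26) and Atp6v1c2 without any 1 of 5 (0.43 to 0.53). Atp6v1c2 is also on the list of intercalated cell markers. Macrophages are rich in lysosomal enzymes too. Of 21 macrophage and myeloid markers tested, 0 were called in limma (2 at an unadjusted p under 0.05), 20 had a difference above 0, and their median was 0.25. Their mean level was 7.91 to 8.11 with FK506 and 7.69 to 7.87 with rapamycin. The largest differences, of C1qc (0.60, adjusted p = 0.186), Adgre1 (0.59, adjusted p = 0.413) and Coro1a (0.58, adjusted p = 0.215), did not pass the test. The part of these cells in the hydrolase result was not tested. In kidney homogenate, fewer cells of a type and less RNA per cell cannot be told apart.

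Called genes of fatty acid oxidation were all higher with FK506. The list joins genes of fatty acid oxidation with targets of PPAR-alpha, the receptor that switches on lipid burning in the fasting state. It held 32 tested genes, of which 11 were higher, 0 lower and 31 above 0, with a median of 0.27. The mean level over the list was 11.07 to 11.10 in the FK506 rats and 10.72 to 10.85 in the rapamycin rats. Without any 1 rat the count was 6 to 8, and with the 8 arrays alone it was 2. Cpt2, which transfers fatty acids into the mitochondrial matrix, stood at 9.72, 9.68, 9.59 and 9.90 with FK506 and at 9.05, 9.10, 9.12 and 9.01 with rapamycin. That separation amounted to 0.65 (SE 0.11, 1.57-fold, adjusted p = 4.34e-05). Acaa2, the last enzyme of mitochondrial beta-oxidation, differed by 0.60 (SE 0.13, adjusted p = 0.0012), Ehhadh, a peroxisomal enzyme, by 0.69 (adjusted p = 0.0118), and Eci1, an enoyl-CoA isomerase, by 0.58 (adjusted p = 0.00466). Ehhadh lost its call without rapamycin rat 4 (0.52), and a further probe set of Eci1 gave 0.23 (adjusted p = 0.945). Angptl4, a secreted inhibitor of lipoprotein lipase, differed by 1.13 (adjusted p = 0.0475), a call that was lost without any 1 of 7 rats (0.95 to 1.21). Against vehicle, Cpt2 differed by 0.15 with FK506 and by -0.50 with rapamycin (adjusted p = 0.566 and 0.0031), and the median of the list by 0.04 and -0.18.

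Of 71 respiratory chain genes, 7 were higher with FK506, 0 lower and 53 above 0, but the differences were small, with a median of 0.09. Ndufs3, a core subunit of complex I, stood at 11.48 to 11.51 with FK506 and at 11.16 to 11.27 with rapamycin, a difference of 0.29 (SE 0.06, adjusted p = 7.7e-04). Ndufv2 differed by 0.30 (adjusted p = 0.0138) and Ndufa7 by 0.46 (adjusted p = 0.0384), although a further probe set of Ndufa7 gave -0.02. Ndufv2 lost its call without any 1 of 3 rats (0.25 to 0.28) and Ndufa7 without any 1 of 5 (0.35 to 0.45). The list's count was 2 to 9 without any 1 rat and 0 with the 8 arrays alone (limma).

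**Figure D3:**
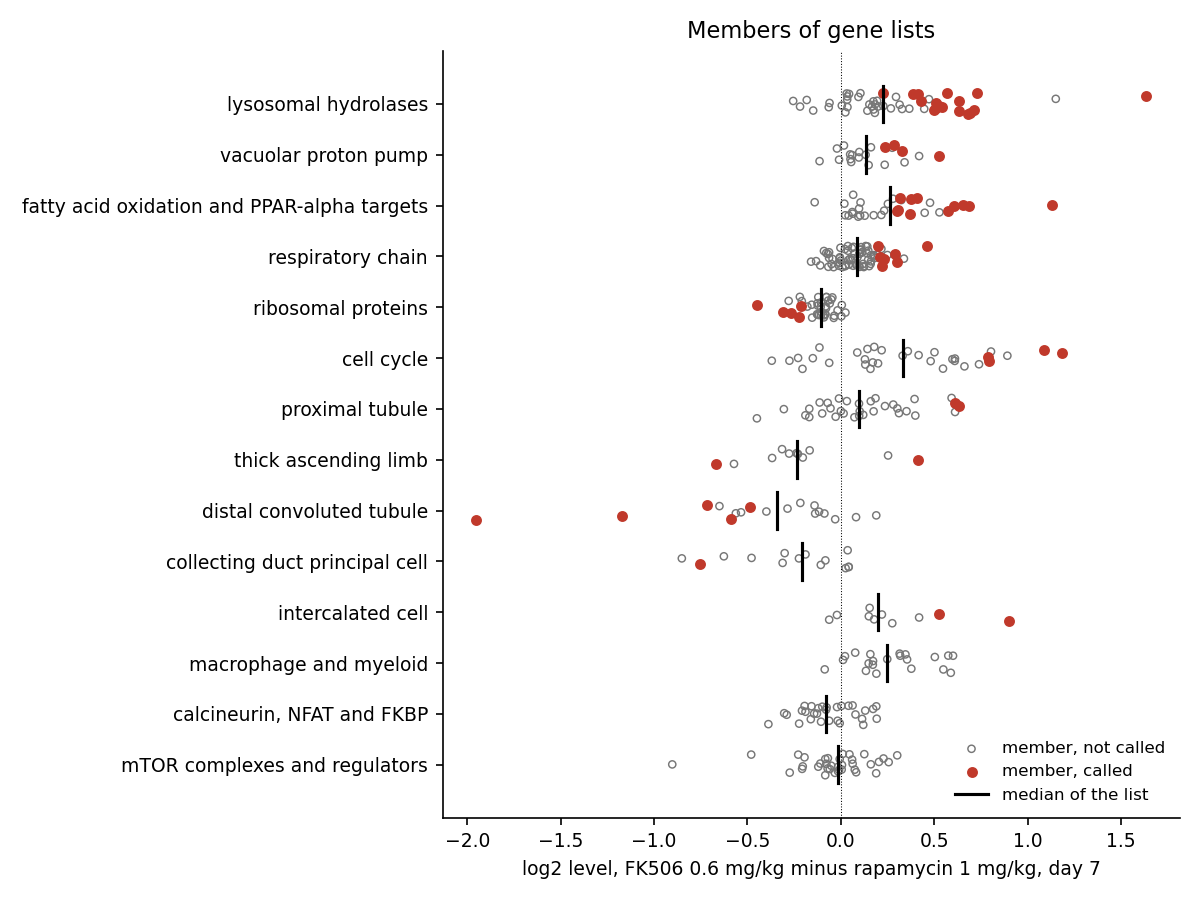
Each point is a gene of 1 list, placed on the x axis by its log2 difference between FK506 0.6 mg/kg and rapamycin 1 mg/kg at day 7. Filled points are called genes and the bar is the median of the list. The called hydrolases, 17 of 50, all lie above 0, and the 5 called genes of the distal convoluted tubule all lie below 0.

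Several of the largest falls, with FK506 relative to rapamycin, were of markers of the distal convoluted tubule. This segment reabsorbs sodium chloride through the thiazide-sensitive cotransporter and takes up calcium and magnesium. Of 18 tested markers of this segment, 5 were lower with FK506, 0 were higher and 16 had a difference below 0. The median was -0.34, and it was -0.34 without quantile normalization too. The mean level over the list was 8.68 to 8.86 with FK506 and 9.16 to 9.19 with rapamycin. Without any 1 rat 4 to 6 members were called, and 4 with the 8 arrays alone.

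Calb1, calbindin-D28k, which carries calcium through the distal tubule cell, stood at 10.04, 9.86, 9.99 and 10.94 with FK506 and at 12.20, 12.04, 12.09 and 12.31 with rapamycin. FK506 rat 4 was about 1 log2 unit above the other FK506 rats and still below every rapamycin rat. The difference was -1.95 (SE 0.25, 3.87-fold, adjusted p = 8.31e-09). Against vehicle it was -2.07 with FK506 (adjusted p = 3.94e-09) and -0.12 with rapamycin (adjusted p = 0.873). S100g, calbindin-D9k, the smaller calcium carrier, stood at 7.37, 7.51, 7.79 and 7.61 with FK506 and at 8.62, 8.91, 8.68 and 8.76 with rapamycin. Its difference was -1.17 (SE 0.18, 2.25-fold, adjusted p = 1.68e-06), but here the values against vehicle were -0.19 with FK506 (adjusted p = 0.674) and 0.98 with rapamycin (adjusted p = 1.04e-04). Egf, the epidermal growth factor precursor made in the distal nephron, stood at 12.67, 12.50, 12.55 and 12.82 with FK506 and at 13.24, 13.31, 13.26 and 13.11 with rapamycin, a difference of -0.59 (SE 0.11, adjusted p = 3.53e-04). Against vehicle Egf differed by -0.48 and 0.11.

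Slc12a3, the thiazide-sensitive cotransporter, differed by -0.72 (SE 0.19, adjusted p = 0.0193). It stood at 8.51, 8.33, 8.84 and 9.18 with FK506 and at 9.26, 9.34, 9.50 and 9.63 with rapamycin, so the nearest rats of the groups lay close together. The call was lost without FK506 rat 1 (-0.65) or rat 2 (-0.59) and without rapamycin rat 3 (-0.69) or rat 4 (-0.65). Both drugs were below vehicle for Slc12a3, by -1.35 with FK506 (adjusted p = 2.52e-06) and by -0.63 with rapamycin (adjusted p = 0.0423). The higher Gapdh ratio of the vehicle arrays limits these values too. Cnnm2, which takes part in magnesium transport and was named after its value was seen to complete the count, differed by -0.48 (adjusted p = 0.00686). Ppp1r1b, at -0.65, did not pass the test (adjusted p = 0.132).

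Other segments gave fewer calls. In the thick ascending limb 2 of 11 genes were called, but 9 had a difference below 0 and the median was -0.24, so a downward shift was not confined to the distal convoluted tubule. Kcnj1, the apical potassium channel, was at 9.83, 9.49, 9.73 and 9.37 with FK506 and at 10.53, 10.10, 10.06 and 10.41 with rapamycin. The difference of -0.67 (SE 0.17, adjusted p = 0.0107) was not called without FK506 rat 4 (-0.59) or rapamycin rat 1 (-0.58). Against vehicle Kcnj1 differed by -0.01 with FK506 and 0.66 with rapamycin. Oxsr1, a kinase that acts on the salt cotransporters, was higher by 0.41 (adjusted p = 0.02), a call lost without any 1 of 4 rats (0.37 to 0.40), while Cldn16 (-0.57, adjusted p = 0.1), Slc12a1 (-0.37, adjusted p = 0.192) and Umod (-0.17, adjusted p = 0.169) did not pass. In the principal cells 1 of 14 genes was called (7.14%, against 3.3% of all genes tested), 10 had a difference below 0, and the median was -0.21. The called gene was Fxyd4, a regulator of the sodium pump, at -0.75 (adjusted p = 0.0494), and it lost its call without any single one of the 8 rats (-0.62 to -0.85). The water channel Aqp4 had the largest difference of that list, -0.85, and did not pass (adjusted p = 0.169). In the intercalated cells 2 of 10 were higher, Slc26a4 and Atp6v1c2, the latter already counted above as a subunit of the vacuolar ATPase. Slc26a4, pendrin, the chloride-bicarbonate exchanger, stood at 9.92, 9.73, 10.18 and 9.76 with FK506 and at 8.94, 9.09, 8.78 and 9.15 with rapamycin, a difference of 0.90 (SE 0.20, adjusted p = 0.00168). The FK506 level of Slc26a4 was close to vehicle (-0.05), and the rapamycin level was below it (-0.95, adjusted p = 0.00113). Of 33 proximal tubule genes 2 were higher, the phosphate carrier Slc34a3 (0.63, adjusted p = 0.0251, not called without any 1 of 5 rats at 0.57 to 0.61) and the cystine carrier Slc7a9 (0.61, adjusted p = 0.00359). The share called was 6.06%, against 3.3% of all genes tested, and the median of the list was 0.10. The glucose carrier Slc2a2 (0.59, adjusted p = 0.0599) and the amino acid carrier Slc7a7 (0.61, adjusted p = 0.142) did not pass. With the 8 arrays alone, limma called 0 genes of the thick ascending limb and of the principal cells, 1 of the intercalated cells and 1 of the proximal tubule.

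Among 18 genes of vitamin D and phosphate handling, 2 were higher and 2 lower. Calb1 and S100g, both known as vitamin D targets, were the lower ones. Slc34a3 and Cyp27b1, the enzyme that makes active vitamin D, were the higher ones. Cyp27b1 stood at 7.34, 8.06, 6.54 and 7.40 with FK506 and at 5.59, 6.93, 6.13 and 5.61 with rapamycin. The groups overlapped, and the difference of 1.27 (SE 0.35, adjusted p = 0.0233) was not called without any 1 of 5 rats (1.03 to 1.27) or with an offset of 1. The vitamin D receptor Vdr was at -0.42 (adjusted p = 0.371) and Kl, the klotho gene, at -0.09 (adjusted p = 0.935).

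Pxmp4 had the largest difference of all genes. It stood at 10.82, 10.97, 11.41 and 11.69 with FK506 and at 8.40, 9.02, 8.86 and 8.98 with rapamycin. The gap between the groups was wider than the range of either, and the difference was 2.41 (SE 0.46, 5.3-fold, adjusted p = 2.8e-04). A further probe set gave 2.48 (adjusted p = 0.00231). Against vehicle Pxmp4 differed by 0.44 with FK506 (adjusted p = 0.718) and by -1.97 with rapamycin (adjusted p = 0.00459). Dgkg, a diacylglycerol kinase, stood at 11.14, 10.89, 11.12 and 11.05 with FK506 and at 9.14, 9.33, 9.28 and 9.12 with rapamycin. The rats of each group lay close together, and the difference of 1.83 (SE 0.20, 3.55-fold) had an adjusted p of 1.31e-11. Further probe sets of Dgkg gave 1.40 (called) and 0.55 (not called). Vldlr, the very low density lipoprotein receptor, stood at 8.67, 8.55, 8.45 and 8.53 with FK506 and at 7.49, 7.50, 7.56 and 7.69 with rapamycin, a difference of 0.99 (SE 0.12, 1.99-fold, adjusted p = 1.47e-09). Against vehicle Vldlr differed by 0.40 with FK506 (adjusted p = 0.0518) and by -0.59 with rapamycin (adjusted p = 8.09e-04). Further probe sets of Vldlr gave 0.91 and 0.59 (called) and 0.30 (adjusted p = 0.71).

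The other large rises, relative to rapamycin, were of genes with varied roles. Their differences from vehicle are not given here. Creb3l3, a membrane-bound transcription factor of lipid metabolism, was at 8.86, 8.34, 8.24 and 8.69 with FK506 and at 6.73, 6.76, 7.28 and 7.00 with rapamycin, a difference of 1.59 (SE 0.23, 3.02-fold, adjusted p = 1.09e-06). Apoe, the apolipoprotein that carries cholesterol, had a mean level of 11.78 (SD 0.23, n = 4) with FK506 and of 10.56 (SD 0.31, n = 4) with rapamycin, a difference of 1.22 (SE 0.27, adjusted p = 0.00224). Both pairs of groups were fully separated. Stra6, the receptor for retinol-binding protein, was at 9.46, 9.29, 8.41 and 8.53 against 7.73, 7.12, 6.88 and 6.99, a difference of 1.74 (SE 0.34, adjusted p = 3.99e-04). Its further probe sets gave 1.41, 1.21 and 0.90, which were called, and 0.55, which was not. Adh1c, an alcohol dehydrogenase that also oxidizes retinol, differed by 1.31 (adjusted p = 0.0109, not called without any 1 of 3 rats at 1.17 to 1.21), and a further probe set gave 0.75 (adjusted p = 0.227). Cyp2e1, an ethanol-inducible cytochrome P450, differed by 0.94 (SE 0.20, adjusted p = 9.78e-04). Of 32 genes of sterol and fatty acid synthesis 1 was called, the sterol reductase Tm7sf2, at 0.63 (adjusted p = 0.0036), a share near the 3.3% of all genes tested. Mdk, midkine, a heparin-binding growth factor, differed by 1.15 (SE 0.24, adjusted p = 0.001), with every FK506 rat (8.03 to 8.87) above every rapamycin rat (6.94 to 7.62). C5h8orf88 differed by 1.11 (adjusted p = 0.0216), and was not called without any 1 of 4 rats (0.86 to 1.11).

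Klk1 is the tissue kallikrein, a serine protease of the distal nephron that releases the vasodilator kinins, and Klk1c4 a related gene among the 15 largest rises. Klk1 stood at 12.65, 12.75, 12.81 and 12.64 with FK506 and at 11.41, 11.84, 12.17 and 11.84 with rapamycin, a difference of 0.89 (SE 0.18, adjusted p = 5.3e-04). Klk1 was above vehicle by 0.74 with FK506 (adjusted p = 0.0125) and at -0.16 with rapamycin (adjusted p = 0.724). Klk1c4 stood at 10.14, 11.08, 11.36 and 11.29 against 8.16, 9.42, 10.16 and 7.43, a difference of 2.18 (SE 0.44, 4.53-fold, adjusted p = 6.36e-04). The rapamycin rats of Klk1c4 were widely spread (SD 1.23), and rapamycin rat 3 lay at the level of FK506 rat 1. Rat kallikrein genes are near copies, so probe sets may read more than 1 of them and their values may not be independent. The list of genes regulated by male sex, growth hormone and androgen held 16 tested genes, of which 3 were higher, namely Klk1, Cyp2e1 and Klk1b3 (0.63), and 1 was lower, Odc1 (-0.55, adjusted p = 0.0384). Klk1b3 and Odc1 were named after their values were seen. Klk1c9, a further kallikrein gene, was at 1.29 and did not pass (adjusted p = 0.11). Cyp2c11, a male-specific cytochrome P450, ranged from 6.96 to 10.50 with FK506 and from 6.37 to 10.58 with rapamycin, with a difference of 0.65 (SE 0.85, adjusted p = 0.809).

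Among 12 genes of prostaglandins and vasoactive peptides, 2 were higher and 1 lower. Ptgs2, cyclooxygenase-2, a prostaglandin-producing enzyme of the macula densa, was the lower one. It stood at 6.01, 5.93, 6.25 and 6.42 with FK506 and at 6.68, 8.27, 7.54 and 7.72 with rapamycin. Rapamycin rat 1 lay well below the other 3 of its group, and the difference of -1.40 (SE 0.35, 2.64-fold, adjusted p = 0.00985) was not called without rapamycin rat 2 (-1.16). Against vehicle Ptgs2 differed by -1.25 with FK506 (adjusted p = 0.0383) and by 0.15 with rapamycin (adjusted p = 0.892). Ptgds, a prostaglandin D synthase, was higher: it stood at 10.13, 9.61, 9.27 and 9.18 with FK506 and at 8.68, 7.84, 7.31 and 8.71 with rapamycin, a difference of 1.41 (SE 0.32, adjusted p = 0.00287). Klk1 was the other higher gene.

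Beside the calbindins and Ptgs2, the largest falls, relative to rapamycin, concerned genes of varied roles. Their differences from vehicle are not given here. Cryab, a small heat shock protein, was at 11.09, 11.42, 11.45 and 11.11 with FK506 and at 12.13, 12.42, 12.18 and 12.18 with rapamycin, a difference of -0.96 (SE 0.21, adjusted p = 0.00141). Basp1, a membrane-associated signalling protein, differed by -0.81 (SE 0.16, adjusted p = 7.63e-04), with FK506 rats at 8.17 to 8.88 and rapamycin rats at 8.93 to 9.56. Ltbp4, which binds latent TGF-beta, differed by -0.71 (SE 0.15, adjusted p = 0.001), Ly6i, a Ly6 family gene, by -0.73 (SE 0.15, adjusted p = 0.0013), and Rem1, a small GTPase that inhibits calcium channels, by -0.78 (SE 0.19, adjusted p = 0.00806). None of these pairs of groups overlapped, but a further probe set of Rem1 gave -0.08. C2h3orf80 (-0.99), Lratd1 (-0.93), the transcription factor Sim2 (-0.77), Gcnt2 (-0.70), a glycosyltransferase of blood group I antigen, and the AMPK-related kinase Nuak2 (-0.67) completed the list of the 15 largest falls. Each of these 5 lost its call without at least 4 single rats, with values of -0.77 to -1.05 for C2h3orf80, -0.76 to -0.89 for Lratd1, -0.63 to -0.78 for Sim2, -0.51 to -0.75 for Gcnt2 and -0.60 to -0.70 for Nuak2.

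Some mitotic genes were higher with FK506. Of 33 cell cycle genes 4 were called, all higher with FK506, 26 had a difference above 0, and the median was 0.33. The mean level over the list was 7.03 to 7.15 with FK506 and 6.65 to 6.75 with rapamycin. Ccnb2, cyclin B2, stood at 7.16, 6.92, 6.65 and 6.84 with FK506 and at 4.45, 5.93, 6.19 and 6.26 with rapamycin, a difference of 1.18 (SE 0.25, 2.27-fold, adjusted p = 0.00114). Rapamycin rat 1 lay far below its group, and without it the difference was 0.77 and was not called. Mki67, the Ki-67 antigen of dividing cells, stood at 6.56, 6.48, 6.27 and 6.38 against 5.11, 5.68, 5.58 and 4.97, a difference of 1.09 (SE 0.27, adjusted p = 0.00898), or 0.97 and not called without rapamycin rat 4. Cdc20 (0.80, adjusted p = 0.0296, not called without any 1 of 5 rats at 0.65 to 0.77 or on 1 of 2 further probe sets at 0.56) and Cdk1 (0.79, adjusted p = 0.046), which was named after its value was seen, were the other 2. Kif20a (0.89, adjusted p = 0.105) and Top2a (0.80, adjusted p = 0.0912) did not pass. Against vehicle, Ccnb2 was at -0.54 for FK506 (adjusted p = 0.278) and -1.72 for rapamycin (adjusted p = 1.61e-06), and Mki67 at -0.49 (adjusted p = 0.388) and -1.58 (adjusted p = 6.35e-05). The list's count was 1 to 4 without any 1 rat.

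Ribosomal protein genes, whose translation is under the control of mTOR, showed small differences in RNA. Of 39 genes tested 5 were lower with FK506, 0 higher and 36 below 0, with a median of -0.11. They were Rpl21 (-0.45), Rpl13a (-0.31), Rpl14 (-0.27), Rpl41 (-0.22) and Rps16 (-0.21, named after its value was seen). The mean level over the list was 12.37 to 12.43 with FK506 and 12.51 to 12.55 with rapamycin. These calls were weak: 1 to 4 were made without any 1 rat 2 without quantile normalization, where the median was -0.07, and 0 with the 8 arrays alone (limma). Of 34 genes of the unfolded protein and amino acid stress responses 5 were higher and 0 lower. Beside Vldlr these were Psph (0.73, adjusted p = 0.011) and Phgdh (0.57, adjusted p = 0.0291), enzymes of serine synthesis, and Pdia4 (0.67, adjusted p = 0.00367) and Dnajc3 (0.43, adjusted p = 0.0191), which help proteins fold in the endoplasmic reticulum. Psph lost its call without FK506 rat 1 or rapamycin rat 2 (0.67 and 0.66), Dnajc3 without any 1 of 3 rats (0.38 to 0.39) and Phgdh without any 1 of 7 (0.49 to 0.59). Asns (0.07), Atf4 (-0.11) and Ddit3 (0.02), further members of the list that were named after their values were seen, were not called.

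The genes of the drug targets themselves did not pass the test. Of 30 genes of calcineurin, NFAT and the FKBP family, 0 were called in limma (3 at an unadjusted p under 0.05), with a median of -0.08. Fkbp1a, which encodes FKBP12, was at 10.31, 10.21, 10.22 and 10.32 with FK506 and at 10.35, 10.35, 10.45 and 10.55 with rapamycin, a difference of -0.16 (SE 0.10, adjusted p = 0.473). Ppp3ca, the catalytic subunit of calcineurin, differed by -0.16 (adjusted p = 0.202), Rcan1, a calcineurin inhibitor that calcineurin itself induces, by -0.14 (adjusted p = 0.797), and Fkbp5 by -0.30 (adjusted p = 0.816). Of 36 genes of the mTOR complexes and their regulators, 0 were called in limma (8 at an unadjusted p under 0.05), with a median of -0.02. Mtor was at 8.80, 8.77, 8.84 and 8.92 with FK506 and at 8.69, 8.71, 8.73 and 9.00 with rapamycin, a difference of 0.05 (95% interval -0.10 to 0.19, adjusted p = 0.855). RNA levels say nothing of the activity of calcineurin or mTOR.

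Of 25 genes of tubular injury tested, 0 were higher and 1 was lower, Cd24 (-0.51, adjusted p = 0.0471), which lost its call without any 1 of 7 rats (-0.42 to -0.56). The share called, 4%, was near the 3.3% of all genes tested. Havcr1, or Kim-1, the marker of proximal tubule injury, was at 5.84, 6.96, 6.29 and 6.33 with FK506 and at 5.47, 6.18, 6.16 and 6.20 with rapamycin, a difference of 0.36 (SE 0.55, 95% interval -0.73 to 1.44, adjusted p = 0.844). The groups overlapped. Spp1, osteopontin, was at -0.37 (adjusted p = 0.671), Lcn2 at -0.49 (adjusted p = 0.747) and Clu at 0.10 (adjusted p = 0.944). Mmp9, a matrix protease of neutrophils and injured tubules, was called at 1.55 (SE 0.43, adjusted p = 0.0227). Its groups overlapped, at 6.82 to 8.42 with FK506 and 5.35 to 7.02 with rapamycin, and it was not called without any 1 of 5 rats (1.29 to 1.55) or on a further probe set (1.27, adjusted p = 0.0522). Igf1 was at 0.61 (adjusted p = 0.345).

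The same comparison was made in rats that shared no array with these. At the higher doses and day 7 (FK506 6 mg/kg against rapamycin 10 mg/kg) 687 genes were called (6.44%). Of them 186 were called in the same direction at the lower doses, which was 52.8% of the 352 genes called there and 27.1% of the 687, and 0 in opposite directions. Of the 352 genes 344 (97.7%) had the same sign at the higher doses, against 65.8% of all genes tested. Over the 352 genes the correlation of the differences was 0.88, a description over genes that are not independent of one another. These genes were chosen by their calls at the lower doses, where their median size was 0.44. Counted in the same direction, their median at the higher doses was smaller, 0.33. The values were close for Dpp7 (1.64 and 1.66), Dgkg (1.83 and 1.80), Calb1 (-1.95 and -2.07), S100g (-1.17 and -1.11), Vldlr (0.99 and 0.94) and Glb1 (0.63 and 0.63). They were farther apart for Slc12a3 (-0.72 and -1.64), Ptgs2 (-1.40 and -2.51), Havcr1 (0.36 and 2.63) and Pxmp4 (2.41 and -0.31). When the difference between these differences was tested, 0 genes were called in limma (0%; 574 at an unadjusted p under 0.05), and 0 or 1 without any 1 rat. The adjusted p of that test was 0.31 for Pxmp4 and 0.784 for Havcr1.

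**Figure D4:**
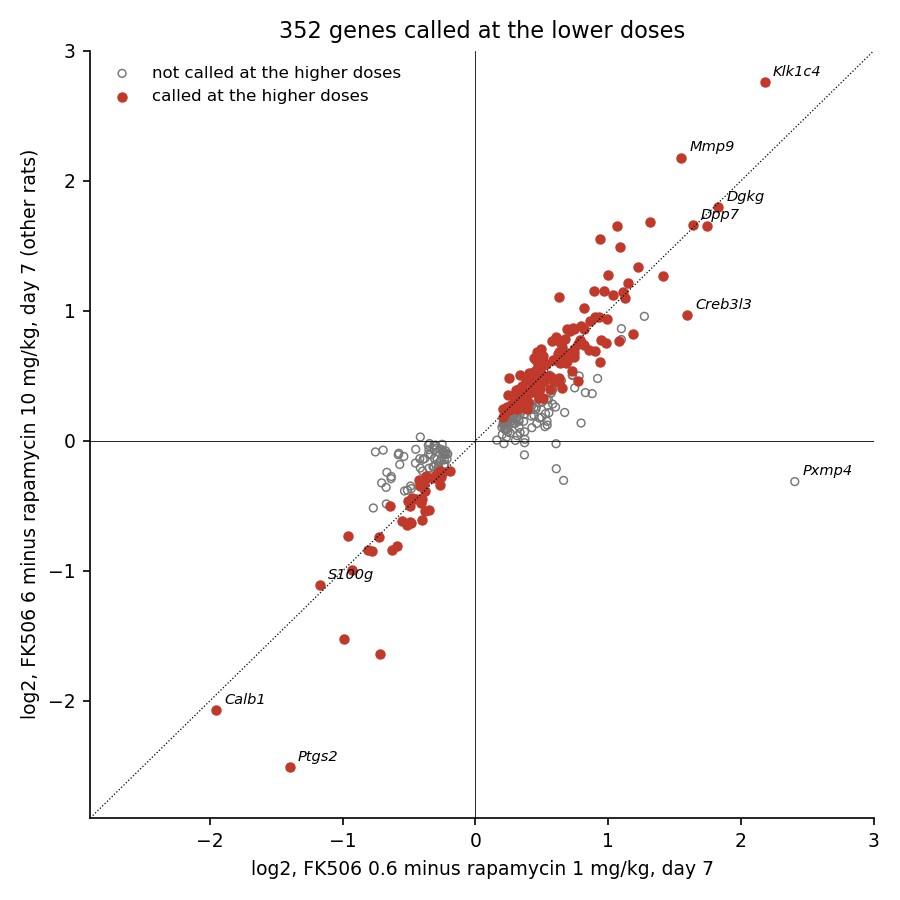
The 352 genes called between FK506 0.6 mg/kg and rapamycin 1 mg/kg at day 7 (x axis, log2 difference) against the same genes between FK506 6 mg/kg and rapamycin 10 mg/kg in other rats of day 7 (y axis, log2 difference). Filled points were called at the higher doses too (186 genes), and the dotted line marks equal differences. Of the 352 genes 344 had the same sign at both doses, with a median size of 0.44 at the lower and 0.33 at the higher doses. Pxmp4 lies at 2.41 and -0.31.

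At the lower doses in rats of other days, 279 genes were called at day 1 (2.62%), 982 at day 14 (9.21%) and 859 at day 28 (8.06%). The genes called at day 7 and in the same direction at the other day numbered 34 at day 1 (9.66% of the 352 and 12.2% of the 279), 199 at day 14 (56.5% and 20.3%) and 169 at day 28 (48% and 19.7%). A single gene was called in opposite directions at day 1, and a single gene at day 28. The share of the 352 with the same sign was 84.1%, 95.2% and 92.9%, against 59.4%, 65.1% and 64.1% of all genes. Counted in the direction of day 7, their median was 0.18, 0.35 and 0.26, against 0.44 at day 7 itself. Calb1 differed by -0.72 at day 1 (adjusted p = 0.0922), -1.95 at day 7, -2.74 at day 14 and -3.34 at day 28. Dpp7 differed by 0.37 at day 1 (adjusted p = 0.26), 1.64 at day 7, 2.15 at day 14 and 1.67 at day 28. Hexa differed by 0.23, 0.73, 0.53 and 0.52, and Egf by -0.17, -0.59, -0.65 and -0.72. Ptgs2 was already lower at day 1 (-1.71, adjusted p = 0.00168), and so was Slc12a3 (-1.27, adjusted p = 1.45e-05). Pxmp4 stood at -0.04, 2.41, 1.16 and 0.13 on the 4 days, and was called at day 7 alone.

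**Figure D5:**
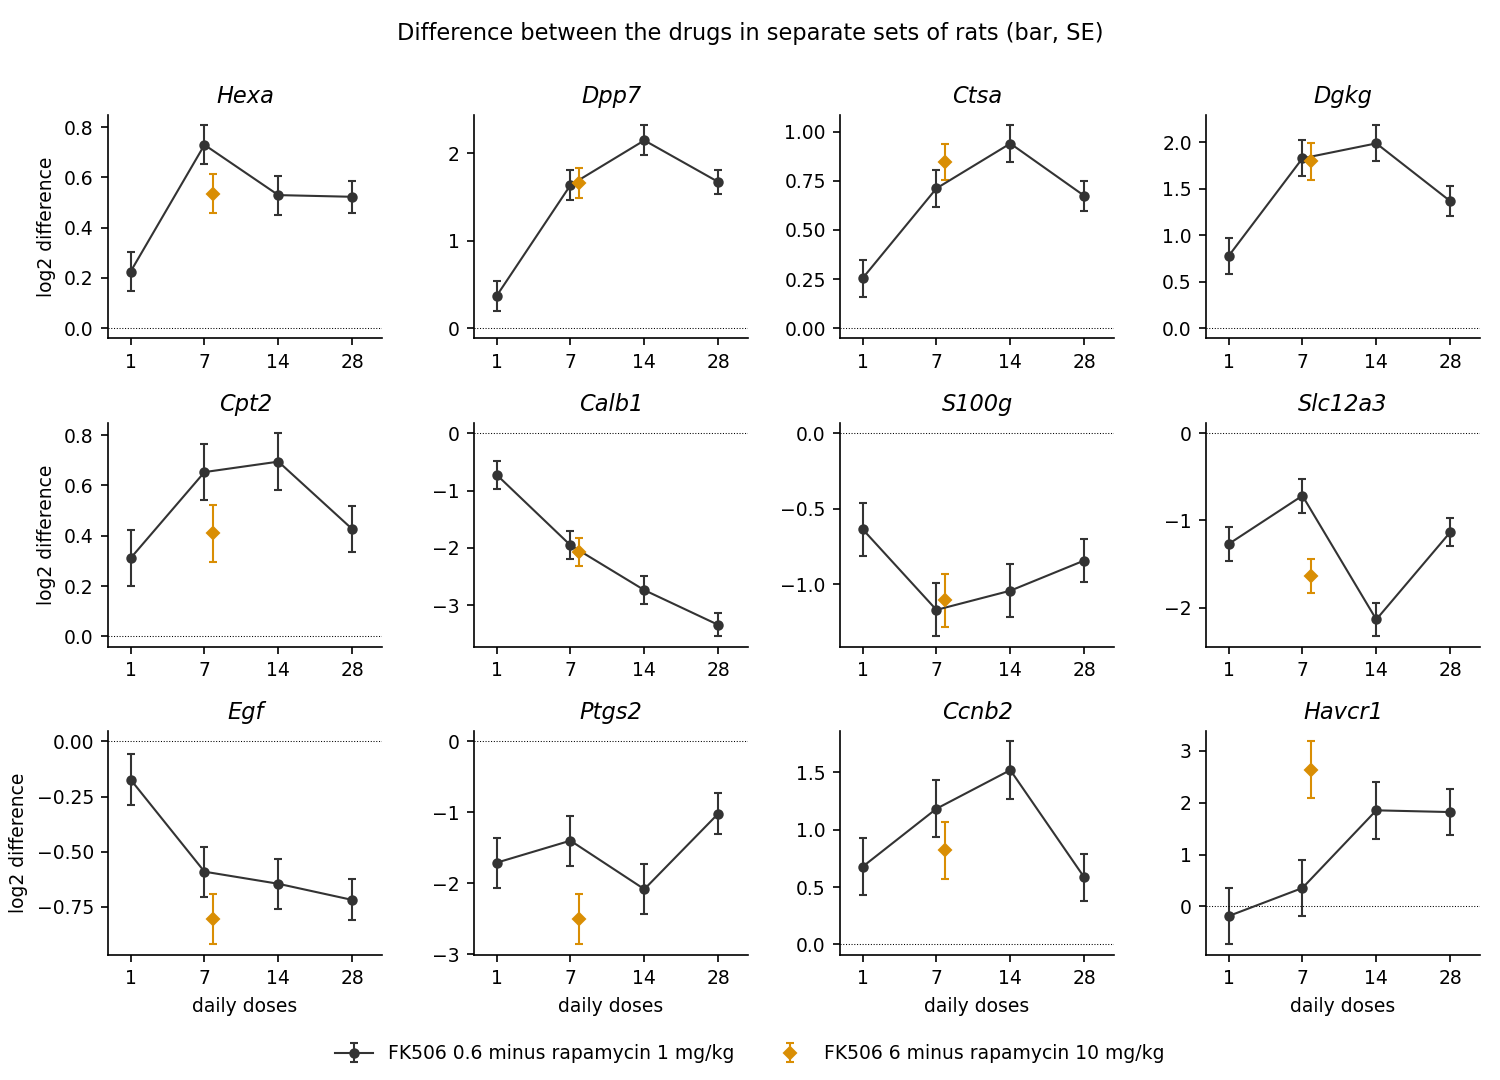
Log2 difference between the drugs (y axis, with SE) for 12 genes after 1, 7, 14 and 28 daily doses (x axis, evenly spaced), each day in other rats. Black points are FK506 0.6 mg/kg minus rapamycin 1 mg/kg and the orange point is FK506 6 mg/kg minus rapamycin 10 mg/kg at day 7. Calb1 goes from -0.72 at day 1 to -3.34 at day 28, Dpp7 from 0.37 to 1.67, and Havcr1 is near 0 at days 1 and 7 (-0.19 and 0.36) and at 1.85 at day 14.

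Tests of the difference between days gave few calls. Against day 1 the drug difference of day 7 differed in 35 genes (0.328%), 20 of them upward and 15 downward. The largest upward were Dpp7 (by 1.27, adjusted p = 0.00343), Arhgap9 (1.09, adjusted p = 0.0477), Txndc5, a protein disulfide isomerase of the endoplasmic reticulum (1.05, adjusted p = 0.00199), and Rnd3 (1.03, adjusted p = 0.0241). The largest downward were Adam9, a membrane metalloprotease (-1.79, adjusted p = 0.0222), A1cf, an RNA-editing cofactor (-1.28, adjusted p = 0.0466), Ndst1, an enzyme of heparan sulfate synthesis (-1.07, adjusted p = 0.0407), and Exoc1, an exocyst subunit (-0.97, adjusted p = 0.0428). These 4 were not called at day 7 itself but were higher with FK506 at day 1 (0.73 to 1.32). The count was 6 with the Gapdh ratio as a covariate, 13 without the limit on dim genes and 7 to 31 without any 1 of 16 rats. It stayed within 1.5 times of 35 only without FK506 rat 2 of day 7 (25) or rapamycin rat 2 of day 1 (31). Dpp7 and Txndc5 were called under each alternative fitted for them, and each of the other 6 lost its call under at least the Gapdh covariate. Against day 14, 2 genes differed (0.0188%): Slc12a3 by 1.42 (adjusted p = 0.00645), with -0.72 at day 7 and -2.14 at day 14, and Dnm1l, a GTPase of mitochondrial fission, by -0.88 (adjusted p = 0.00482). With the Gapdh ratio as a covariate Slc12a3 was not called there (1.16, adjusted p = 0.0657 in limma). It was not called either without FK506 rat 4 of day 7 (1.27), FK506 rat 4 of day 14 (1.30) or rapamycin rat 4 of day 14 (1.31). Dnm1l was not called without rapamycin rat 2 of day 14 (-0.74). With the groups compared fitted alone, neither was called. Against day 28, 0 genes were called in limma (0%; 729 at an unadjusted p under 0.05), and 3 without FK506 rat 3 or rapamycin rat 4 of day 7, FK506 rat 4 of day 28 or rapamycin rat 6 of day 28.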

How the data were processed

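Kidney RNA of 120 rats was hybridized to Rat 230 2.0 arrays, 1 array per rat, and read with GeneChip Operating Software, per the labels' protocols. The values deposited by the authors are linear intensities per probe set. Their summarization and scaling method, and any scan dates, are not given in the sources used here. From them, log2(intensity + 16) was computed and quantile normalized over the 120 arrays. Of 31099 probe sets, 57 were controls, 20826 had 1 gene in the platform annotation, 436 had several and 9780 had none. Each of 14217 genes was represented by its brightest probe set on average, and the dimmest 25% were left out, which gave 10663 genes. A mean for each of 28 groups was fitted in limma (version 3.58.1, R 4.3.3), which estimates the spread from all groups, and p-values were adjusted by Benjamini-Hochberg over all genes and called under 0.05. The script was tested on simulated data. Single-value tests were exact two-sided permutation tests.

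The 8 arrays compared, the gene lists and the tests were chosen with earlier results of these data known. The 15 largest rises and falls, up to 5 members with the largest difference of each list described, a short list of drug target, injury and tubule genes, and 4 genes per direction of each test between doses or days could be named, and of the list members that did not pass only some are. Cnnm2, Cdk1, Rps16, Klk1b3, Odc1, Asns, Atf4, Ddit3 and the called members of both added lists were named after their values were seen. Alternatives were no quantile normalization, an offset of 1, no limit on dim genes, an intensity trend, covariates, leaving out 4 arrays of other groups with an Alb level above 12, other probe sets, the groups alone and leaving out each rat. The labels name separate rats. The limma p-values rest on the spread between rats within groups, estimated over all 28 groups and not from the 8 rats alone. The 4 arrays per group limit the precision.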

Additional observations from a re-analysis of the deposited data

Results flagged for a closer look

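Among 274 sets of 4 values examined for a sample far from the other 3, 16 stood out, and chance gives about 1 in 20. With FK506, the highest rat stood apart for Calb1 (10.94, others 9.86 to 10.04), Cox5a (7.83, others 7.62 to 7.64), Ptgs1 (7.08, others 6.46 to 6.55), Cyp2e1 (13, others 12.74 to 12.77), Hmox1 (11.4, others 6.09 to 6.94) and Galc (9.42, others 9.16 to 9.2), and the lowest for Top2a (5.96, others 6.69 to 6.82). With rapamycin, the highest rat stood apart for Ppp3ca (10.54, others 10.23 to 10.25), Mtor (9, others 8.69 to 8.73), Glb1 (10.99, others 10.86 to 10.87), Sgk1 (12.49, others 11.49 to 11.59), Atp6v1b1 (8.49, others 8.08 to 8.14), Thrsp (7.46, others 5.94 to 6.1) and Ddit4l (9.86, others 7.79 to 8.09). The lowest rapamycin rat stood apart for Havcr1 (5.47, others 6.16 to 6.2) and Ctsa (12.56, others at 12.65).

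The drug difference of day 7 differed from that of day 1, in a limma test of the difference itself, by 1.27 for Dpp7, 1.09 for Arhgap9, 1.05 for Txndc5, 1.03 for Rnd3, -1.79 for Adam9, -1.28 for A1cf, -1.07 for Ndst1 and -0.97 for Exoc1. Against day 14 it differed by 1.42 for Slc12a3 and by -0.88 for Dnm1l.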

How the results depend on the processing

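No paired analysis was possible because the labels give rat identifiers and no replicate numbers shared between groups. The direct comparison called 287 to 365 genes under the normalization, offset, filter, trend and covariate alternatives, 336 without the 4 arrays of other groups with high Alb (where Angptl4, Fxyd4, Gcnt2 and Nuak2 lost their calls), 352 of 23282 probe sets kept apart, 98 with its 8 arrays alone and 210 to 307 without any 1 rat. The split of higher and lower calls was 250 and 102, 239 and 107 without quantile normalization, and 247 and 102 with an offset of 1. Without the limit on dim genes the difference from day 1 gave 13 calls. With the Gapdh covariate the difference from day 1 gave 6, that from day 14 gave 1, FK506 against vehicle 52 and rapamycin against vehicle 224. With the groups alone the difference from day 14 gave 0, FK506 against vehicle 2 and rapamycin against vehicle 42. With all probe sets apart these gave 102 (day 1), 6 (day 14), 380 and 853. Without any 1 rat the ranges were 0 to 1 between doses, 7 to 31 against day 1, 1 to 3 against day 14, 0 to 3 against day 28, 54 to 246 for FK506 against vehicle and 224 to 426 for rapamycin against vehicle. The cause of these moves was not tested. Of 78 named genes that were called, 21 were called under every alternative run, 43 without any 1 rat, and 46 lost their call with the 8 arrays alone. A further probe set reversed the sign of Ndufa7 (-0.018) and Man2b1 (-0.40). Dim genes sit near background, where the offset makes differences too small.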

Other observations

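Pxmp4 varied across the whole series. The 4 rats given rapamycin 1 mg/kg for 7 days stood at or below 9.02, and 6 of the other 116 arrays did too. These were a rat of rapamycin 10 mg/kg at day 1 (8.85), vehicle at day 14 (8.81), cyclosporine 2.5 mg/kg at day 14 (8.50), rapamycin 1 mg/kg at day 14 (8.18), cyclosporine 25 mg/kg at day 28 (8.95) and FK506 0.6 mg/kg at day 28 (8.63).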
